A study of Mus musculus with 6 samples.

Results

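Transcript levels of Ctsll3, the gene for cathepsin L-like 3, were set beside those of 7 other cathepsin genes (Ctsl, Ctsb, Ctsd, Ctsz, Ctsc, Ctsh and Ctsa) and of Lgmn, the gene for legumain, in mouse blastocysts. Ctsll3 was picked because it was lower in 1 of the 2 groups compared here, and the other 8 genes were taken as family members for comparison. The 9 genes were found by their Ensembl identifiers among the 55774 genes of the table, and all 9 passed the filter on low values, which kept 11924 genes. The blastocysts were labelled wild type and grew from early embryos flushed from the oviducts of ICR mice. All of them were cultured in CZB medium with extracellular vesicles from the fluid of human Fallopian tubes added, from women with endometriosis (oEV-EMT) or from control women (oEV-ctrl). The sample labels describe the control women as having uterine fibroids, whereas the study's methods describe surgery for a cervical lesion and no pelvic disease, so the control condition is not settled by the sources. Each group had 3 libraries of 10 pooled blastocysts, no library came from embryos without vesicles, and nothing in the labels says that the 3 pools had separate vesicle donors. The p-values below therefore measure only the spread between these libraries, which may be technical.

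Cathepsins are peptidases that cut proteins, most of them in the acidic lumen of the lysosome. They are made as inactive precursors, carried to the lysosome by mannose-phosphate receptors and activated there when a propeptide is cut off. Most of the genes described here encode papain-like enzymes that cut with a cysteine, while cathepsin D uses a pair of aspartates, cathepsin A a serine and legumain a cysteine of an unrelated fold. In rodents, a group of genes related to cathepsin L was multiplied on a single chromosome, and many of its members are known from the placenta, a tissue that descends from the outer layer of the blastocyst.

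Ctsll3 (ENSMUSG00000056728) lay on the minus strand at chr13:60798250-60802849 of GRCm38, and its coding sequence of 996 bases was 70.7% identical to that of Ctsl over the aligned bases. The nearest relative among the genes compared was its neighbour BC051665, a gene with a cathepsin L-like coding sequence that was 88.1% identical. Among the other members, identity to Ctsll3 ran from 59.7% (Ctsb) to 65.2% (Ctsc), and 3 of these, Ctsd, Ctsa and Lgmn, encode enzymes of unrelated families. These 3, at 64.3%, 64.2% and 62.3%, were above the papain-like Ctsb, Ctsz (61.4%) and Ctsh (60.4%). Identity in this range therefore does not mark relatedness. The stretch around the codon of the active-site cysteine is shown for the papain-like members and for BC051665. It displays how close or distant these transcripts are at that site. Each stretch is 57 bases of the GENCODE M21 transcript on GRCm38, with the cysteine codon in capitals.
Ctsll3: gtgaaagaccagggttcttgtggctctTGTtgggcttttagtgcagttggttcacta
BC051665: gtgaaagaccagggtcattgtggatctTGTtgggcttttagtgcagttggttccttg
Ctsl: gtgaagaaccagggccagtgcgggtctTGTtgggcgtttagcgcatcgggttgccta
Ctsb: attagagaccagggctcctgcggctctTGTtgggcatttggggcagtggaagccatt
Ctsh: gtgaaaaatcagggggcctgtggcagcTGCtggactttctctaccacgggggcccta
Ctsc: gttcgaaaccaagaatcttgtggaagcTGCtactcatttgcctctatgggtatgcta
Ctsz: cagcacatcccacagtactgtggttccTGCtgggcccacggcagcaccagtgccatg
Of these 57 bases, BC051665 had 51 in common with Ctsll3, Ctsl 42, Ctsb 41, Ctsh 36, Ctsc 31 and Ctsz 24. Ctsll3, BC051665, Ctsl and Ctsb all used the codon TGT for this cysteine, and Ctsh, Ctsc and Ctsz used TGC.

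The levels of Ctsll3 are a description without a test, because the gene was chosen on this contrast. Values are FPKM, the fragments per kilobase of transcript scaled to the mapped fragments of each library, so levels of different genes are compared per length. In the oEV-ctrl libraries 1, 2 and 3, Ctsll3 stood at 39.3, 93.0 and 24.5 FPKM. With oEV-EMT it stood at 13.1, 7.56 and 4.93 FPKM in replicates 1, 2 and 3. The groups did not overlap, and the lowest oEV-ctrl library was 1.88 times the highest oEV-EMT library. The means were 52.3 ± 36.0 FPKM (SD, n = 3) and 8.51 ± 4.15 FPKM (SD, n = 3), a ratio of 6.14. The libraries of a single group also lay apart, by 3.79 times from lowest to highest in oEV-ctrl and by 2.65 times in oEV-EMT.

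On the scale of log2(FPKM + 1), which understates changes of genes with low values, the difference of Ctsll3 (oEV-EMT minus oEV-ctrl) was -2.36. Only 5 of the 11924 genes tested had a lower value, since Ctsll3 ranked 6 from the bottom. The median of all genes tested was 0.17, and relative to it Ctsll3 stood at -2.53. Without oEV-ctrl replicate 2, the library with the highest level, the difference was -1.85, and without oEV-ctrl replicate 3 it was -2.79. The groups stayed apart, with oEV-EMT lower, under each of the 5 scalings of the libraries that were compared. In RNA from whole blastocysts, fewer cells that express a gene and less RNA per cell cannot be told apart.

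**Figure D1:**
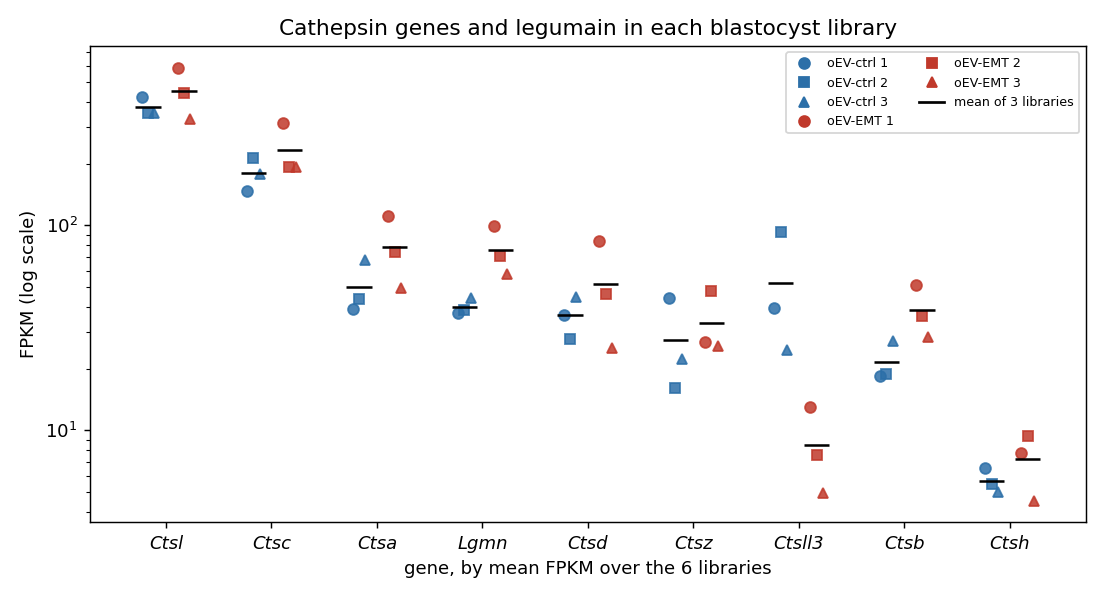
FPKM of the 9 genes (log axis) in each of the 6 libraries, with oEV-ctrl in blue, oEV-EMT in red, a marker shape for each replicate number and a black bar for the mean of 3 libraries. Ctsll3 is the gene whose oEV-EMT libraries (4.93 to 13.1 FPKM) lie below all its oEV-ctrl libraries (24.5 to 93.0), while for Lgmn and Ctsb the oEV-EMT libraries lie above.

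The endopeptidase gene Ctsl, whose product breaks down lysosomal proteins and is the best known relative of Ctsll3, was the most abundant of the 9 genes in all 6 libraries. Ctsl (ENSMUSG00000021477, chr13:64359337-64370890, minus strand) measured 588, 443 and 331 FPKM in oEV-EMT 1 to 3 and 420, 355 and 352 FPKM in oEV-ctrl 1 to 3. Its groups overlapped, with means of 454 ± 129 FPKM against 376 ± 38.6 FPKM (SD, n = 3 each). The log2 difference was 0.24 with a standard error of 0.23 and a 95% interval from -0.27 to 0.75 (limma, Benjamini-Hochberg adjusted p = 0.650). This difference was -0.029 under upper quartile scaling. Thus no difference of Ctsl beyond the spread between libraries was found, and a change of the size seen for Ctsll3 lies outside its interval.

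The ratio of Ctsl to Ctsll3 within a library does not depend on how that library was scaled. Ctsl was 10.7, 3.82 and 14.4 times Ctsll3 in oEV-ctrl 1 to 3 and 45.0, 58.6 and 67.1 times in oEV-EMT 1 to 3. The lowest ratio with oEV-EMT was thus above the highest with oEV-ctrl, again as a description, since Ctsll3 is part of it. Ctsll3 made up 4.99%, 11.5% and 3.20% of the summed FPKM of the 9 genes in oEV-ctrl 1 to 3 and 1.01%, 0.814% and 0.686% in oEV-EMT 1 to 3. The mean share was 6.55% in oEV-ctrl and 0.836% in oEV-EMT, a difference of -5.72 percentage points that was -3.26 without oEV-ctrl replicate 2. Ordered by level among the 9 genes, Ctsll3 was in places 4, 3 and 7 in oEV-ctrl and in places 8, 9 and 8 in oEV-EMT.

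The 8 other members all had log2 differences above 0, with the exceptions of Ctsl under upper quartile scaling and of Ctsd without oEV-EMT replicate 1. Most genes tested were above 0 as well in the values as deposited, with a median of 0.17. Over all genes, 0 of 11924 (0%) passed an adjusted p of 0.05 together with a log2 difference of 1 in limma, and 1831 had an unadjusted p of 0.05 or below. Of these, 1527 were higher in oEV-EMT (12.8% of the genes tested) and 304 were lower (2.55%). Among the 8 members, 2 (Lgmn and Ctsb) had an unadjusted p of 0.05 or below, both with higher values in oEV-EMT, and none with lower values. The groups did not overlap, with oEV-EMT higher, for the same 2 members, against 18.1% of all genes, and 4.34% of all genes were apart with oEV-EMT lower. The median log2 difference of the 8 members was 0.36 beside 0.17 for all genes, and all 8 lay above that median.

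The split between higher and lower genes depended on the scaling, which shifts all genes of a library together. The genes with an unadjusted p of 0.05 or below were 83.4% higher in the values as deposited, 50.5% higher after median-of-ratios scaling (779 higher and 765 lower) and 36.4% higher after upper quartile scaling (550 and 963). The median of all genes was 0.012 and -0.045 under these scalings. Relative to the median under each scaling, the 8 members stayed above it, by 0.016 to 0.097 for Ctsl and by 0.65 to 0.72 for Lgmn. With a library left out this did not hold for 5 of them. Without oEV-EMT replicate 1, Ctsl (-0.11), Ctsd (-0.20) and Ctsc (-0.019) were below the median of all genes. Without oEV-EMT replicate 2, Ctsh (-0.092) and Ctsz (-0.10) were below it. So were Ctsz (-0.12) without oEV-ctrl replicate 2, and Ctsl (-0.022) and Ctsh (-0.024) without oEV-ctrl replicate 3.

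Lgmn encodes legumain, an endopeptidase that cuts after asparagine and is known to process the precursors of several cathepsins. Lgmn (ENSMUSG00000021190, chr12:102394084-102439813, minus strand) measured 98.7, 70.5 and 57.7 FPKM in oEV-EMT 1 to 3 and 37.4, 38.7 and 44.3 FPKM in oEV-ctrl 1 to 3. Every oEV-EMT library was above every oEV-ctrl library, under each of the 5 scalings. The means were 75.6 ± 21.0 FPKM and 40.1 ± 3.65 FPKM (SD, n = 3 each). The log2 difference was 0.87 with a standard error of 0.23 (limma, unadjusted p = 0.00385, adjusted p = 0.164), so it did not pass the adjustment over all genes. Leaving out a library moved it between 0.66 and 1.04.

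Ctsb encodes cathepsin B, which cuts within proteins and also takes dipeptides from their ends. Ctsb (ENSMUSG00000021939, chr14:63122462-63145923, plus strand) measured 51.0, 36.3 and 28.4 FPKM in oEV-EMT 1 to 3 and 18.4, 18.8 and 27.4 FPKM in oEV-ctrl 1 to 3. The groups were apart by a narrow margin, between oEV-EMT 3 and oEV-ctrl 3, and they overlapped under upper quartile scaling. The log2 difference was 0.79 with a standard error of 0.26 (limma, unadjusted p = 0.0128, adjusted p = 0.216). Its 3′ end overlaps that of Fdft1, a gene of cholesterol synthesis on the opposite strand, with 12.1% of the Ctsb 50-base stretches in common. Fdft1, looked up after the values were seen, had 22.5, 42.5 and 19.6 FPKM in oEV-EMT and 19.5, 25.3 and 52.7 FPKM in oEV-ctrl. Whether reads of Fdft1 were counted for Ctsb was not tested.

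Ctsa encodes cathepsin A, a carboxypeptidase that also shields other lysosomal enzymes. Ctsa (ENSMUSG00000017760, chr2:164832873-164841032, plus strand) measured 111, 74.5 and 49.6 FPKM in oEV-EMT 1 to 3 and 38.9, 43.8 and 67.8 FPKM in oEV-ctrl 1 to 3. The groups overlapped through oEV-EMT 3 and oEV-ctrl 3. The log2 difference was 0.60 with a standard error of 0.31 and a 95% interval from -0.10 to 1.30 (limma, adjusted p = 0.386), and it was 0.31 without oEV-EMT replicate 1. In common with other genes, mostly Pltp on the opposite strand, Ctsa had 11.6% of its 50-base stretches. Pltp, looked up after the values were seen, had 8.39, 9.07 and 4.26 FPKM in oEV-EMT and 2.66, 3.45 and 4.05 FPKM in oEV-ctrl. Its groups were apart with oEV-EMT higher (log2 difference 0.86, limma unadjusted p = 0.0124, adjusted p = 0.214). Whether reads of Pltp were counted for Ctsa was not tested.

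The other papain-like members and cathepsin D gave smaller differences. Ctsc (ENSMUSG00000030560, chr7:88278085-88310888, plus strand), a dipeptide-cutting enzyme that activates the serine peptidases of immune cells, measured 316, 194 and 192 FPKM in oEV-EMT and 147, 212 and 178 FPKM in oEV-ctrl. It was second to Ctsl in all 6 libraries. Ctsd (ENSMUSG00000007891, chr7:142375911-142388038, minus strand), the aspartic endopeptidase, measured 83.8, 46.2 and 25.3 FPKM in oEV-EMT and 36.5, 27.8 and 44.6 FPKM in oEV-ctrl. Ctsz (ENSMUSG00000016256, chr2:174427493-174439039, minus strand), a carboxypeptidase, measured 26.8, 47.8 and 25.8 FPKM in oEV-EMT and 44.0, 16.1 and 22.2 FPKM in oEV-ctrl. For Ctsd both the lowest and the highest library were of oEV-EMT, and for Ctsz the high and low libraries of both groups were mixed. Ctsh (ENSMUSG00000032359, chr9:90054152-90076089, plus strand), an aminopeptidase, was the least abundant of the 8, at 7.77, 9.35 and 4.54 FPKM in oEV-EMT and 6.54, 5.44 and 5.03 FPKM in oEV-ctrl. The groups overlapped for all 4 genes.

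The log2 differences were 0.36 for Ctsc (standard error 0.25, 95% interval -0.19 to 0.90), 0.36 for Ctsd (0.39, -0.52 to 1.25), 0.34 for Ctsz (0.37, -0.50 to 1.18) and 0.26 for Ctsh (0.27, -0.34 to 0.86). Their adjusted p-values in limma ran from 0.511 to 0.693. Without oEV-EMT replicate 1, which held the highest value of both genes, the difference was -0.058 for Ctsd and 0.12 for Ctsc. It was 0.034 for Ctsz without oEV-ctrl replicate 2 and 0.070 for Ctsh without oEV-EMT replicate 2. Of the Ctsd stretches, 32.4% were in common with Gm49369, an overlapping gene on the same strand that was listed at 0 FPKM in every library. For Ctsc, Ctsz, Ctsh and Lgmn, under 1% of the stretches were in common with any other listed gene.

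**Figure D2:**
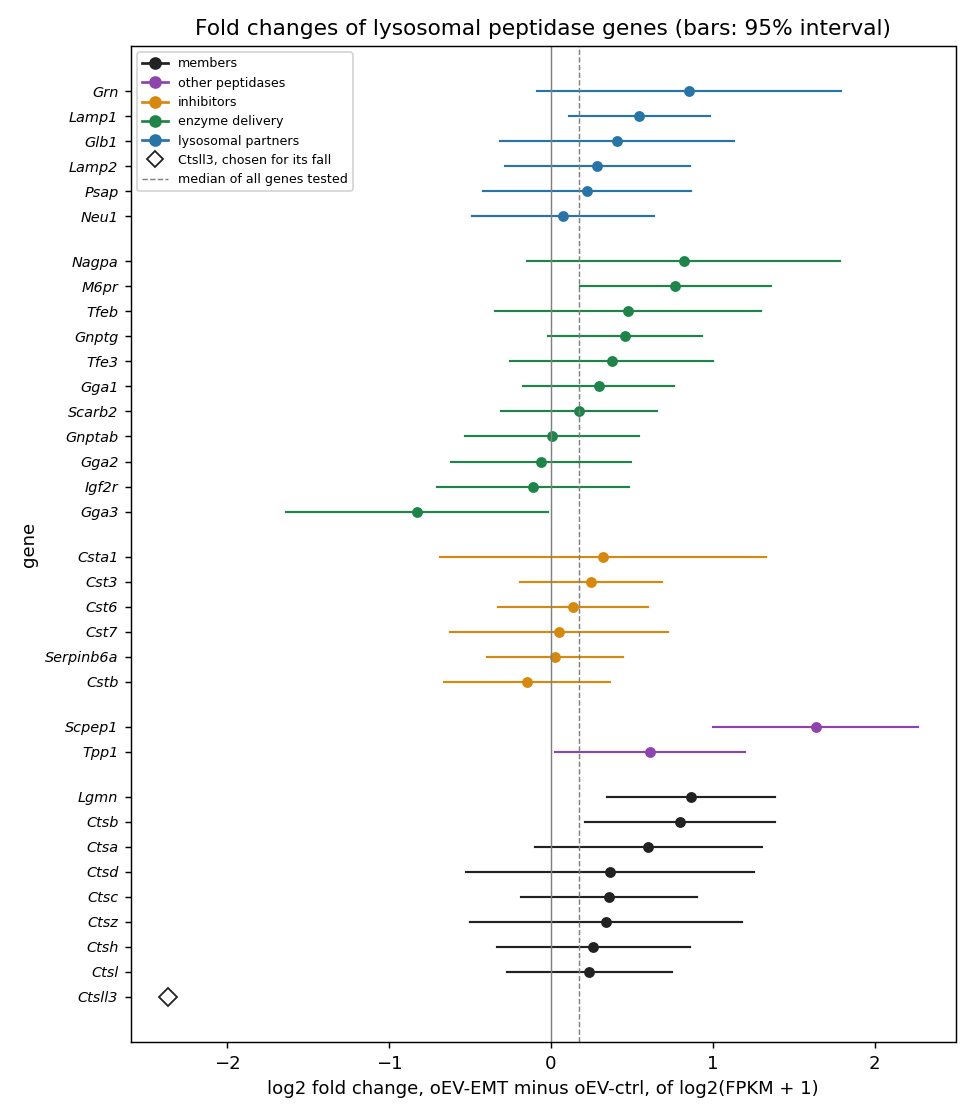
Log2 difference of log2(FPKM + 1), oEV-EMT minus oEV-ctrl, for the members and for the tested genes of the other lists, with 95% intervals from limma and the median of all genes tested (0.17) as a dashed line. The point of Ctsll3 (-2.36, no interval because the gene was chosen on this contrast) lies far to the left, and the points of the 8 other members lie between 0.24 and 0.87.

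Library oEV-EMT 1 had the highest level of Ctsl, Ctsb, Ctsd, Ctsc, Ctsa and Lgmn. The 9 genes summed to 1296, 928 and 719 FPKM in oEV-EMT 1 to 3 and to 789, 811 and 766 FPKM in oEV-ctrl 1 to 3, so the library of oEV-EMT with the least was below all of oEV-ctrl. Ctsl and Ctsc together made up 68.5% to 72.7% of this sum in each library, a narrow range beside that of Ctsll3. Over the 6 libraries, 27 of the 28 pairs among the 8 other members had a positive Pearson correlation of log2(FPKM + 1), up to 0.97 for Ctsb with Lgmn and 0.95 for Ctsb with Ctsa, and the exception was Ctsz with Ctsc at -0.34. Ctsll3 had a negative correlation with all 8, from -0.68 (Lgmn) to -0.16 (Ctsl). These are descriptions over 6 points that share their libraries and their groups.

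The 5 tested genes whose pattern over the 6 libraries was most like that of Ctsll3 were Slc30a4, a zinc transporter (r = 0.997), mt-Tk, a mitochondrial transfer RNA (0.992), Dqx1 (0.992), Cd2ap, an adaptor of the actin cytoskeleton (0.984), and Fabp3, a carrier of fatty acids (0.983). None of the 5 is a peptidase gene. Fabp3 spanned 5328 to 6039 FPKM in oEV-EMT and 6794 to 8657 FPKM in oEV-ctrl, and Slc30a4 spanned 3.14 to 3.79 FPKM and 4.50 to 6.14 FPKM. The spans of these genes between libraries were thus much smaller than that of Ctsll3. Slc30a4, mt-Tk and Dqx1 had the same order of libraries as Ctsll3, while Cd2ap and Fabp3 were lowest in oEV-EMT 2. High correlations and lower oEV-EMT levels follow from this search, which matched all genes tested over 6 libraries to a gene chosen on this contrast.

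Around Ctsll3, the stretch of chromosome 13 from BC051665 to Cts3 with 50 kb on either side held 32 listed genes, 20 of them protein coding. Of these 32 genes, 21 were listed at 0 FPKM in all libraries, and only 4 reached 1 FPKM in at least 3 libraries: Ctsll3, BC051665, 4930486L24Rik and the pseudogene Gm10312. BC051665 and 4930486L24Rik, 2 neighbours with cathepsin L-like sequence, were singled out after their values were seen. In all, 16 of the 20 coding genes stayed under 1 FPKM in every library. Of the 8 placental cathepsin genes listed (Cts3, Cts6, Cts7, Cts8, Ctsj, Ctsm, Ctsq and Ctsr), 0 passed the filter, and the highest value was 1.31 FPKM for Cts6 in oEV-EMT 2. The 4 genes for propeptide-like inhibitors in or near this stretch (Ctla2a, Ctla2b, Tpbpa and Tpbpb), whose products resemble the propeptide of cathepsin L, reached at most 0.0494 FPKM, for Tpbpa. Thus at the blastocyst stage Ctsll3 was, with its neighbours, among the few genes of this stretch with a level above 1 FPKM.

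**Figure D3:**
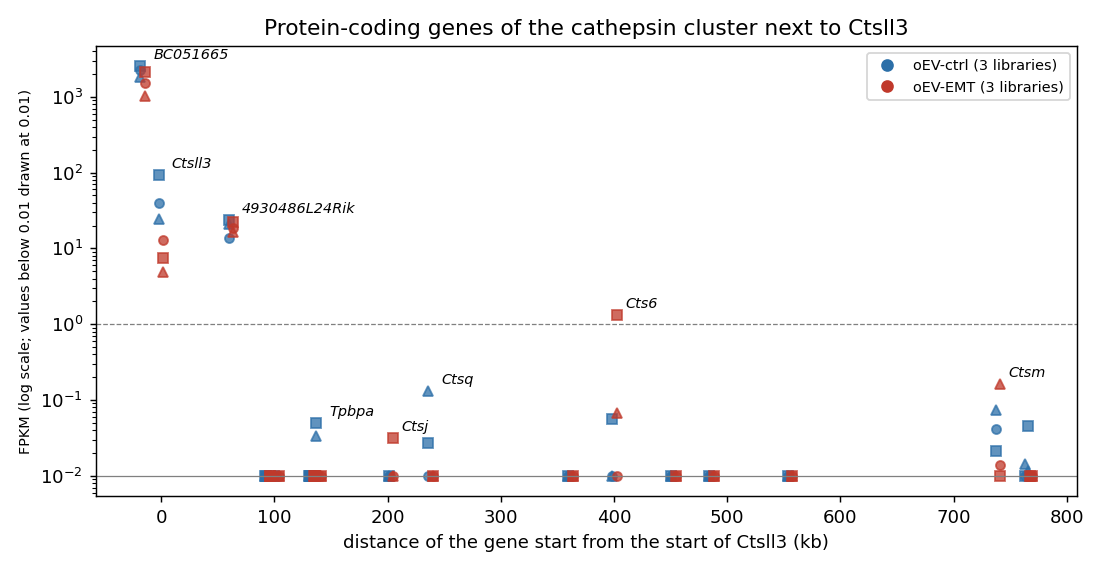
FPKM (log axis, values below 0.01 drawn at 0.01) of the protein-coding genes along the cathepsin stretch of chromosome 13 against the distance of each gene's start from that of Ctsll3 in kb, with oEV-ctrl in blue, oEV-EMT in red and a marker shape for each replicate number. BC051665, Ctsll3 and 4930486L24Rik lie above the dashed line at 1 FPKM in all 6 libraries, and Ctsll3 is the gene of these whose 2 groups do not overlap.

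BC051665 (ENSMUSG00000042243, chr13:60781887-60786364, minus strand), whose start lies 16.5 kb from that of Ctsll3, was far more abundant than any member. It measured 1525, 2111 and 1030 FPKM in oEV-EMT 1 to 3 and 2291, 2526 and 1856 FPKM in oEV-ctrl 1 to 3. The groups overlapped, as oEV-EMT 2 was above oEV-ctrl 3. The log2 difference was -0.56 with a standard error of 0.26 (limma, unadjusted p = 0.0539, adjusted p = 0.333), and it kept its sign under every scaling, from -0.83 to -0.46, and with a library left out, from -0.82 to -0.30. BC051665 was 58.2, 27.2 and 75.6 times Ctsll3 in oEV-ctrl 1 to 3 and 117, 279 and 209 times in oEV-EMT 1 to 3. Hence Ctsll3 was lower against this near copy as well, by description. On the other side, 4930486L24Rik, whose coding sequence was 73.8% identical to that of Ctsll3, measured 18.4, 22.6 and 16.7 FPKM in oEV-EMT and 13.7, 23.7 and 21.2 FPKM in oEV-ctrl, a log2 difference of 0.0019 with a standard error of 0.25 (limma, adjusted p = 0.998).

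Reads that fit 2 genes equally can be credited to the wrong gene. Of the 1391 stretches of 50 bases in the Ctsll3 transcripts, 2.59% also occurred in BC051665 and none occurred in another listed gene. Whether reads of BC051665 were counted for Ctsll3 was not tested. For Ctsl, 26.3% of the stretches occurred in 128 other listed genes, most in Gm47123, an antisense gene that was listed at 0 FPKM. For 4930486L24Rik, 88.3% of the stretches occurred in 2 other listed genes, most in Gm49392, which was also listed at 0 FPKM. Whether the counting used strand is not stated in the sources used here.

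The sequence before the start of Ctsll3 is shown beside that of BC051665, its nearest relative among the genes compared. Whether this sequence bears on the levels of the 2 genes was not tested. The 80 bases before each RefSeq start on GRCm38.p6 were taken from chr13:60802845-60802924 (Ctsll3) and chr13:60786365-60786444 (BC051665), both on the minus strand. The capitals mark TATAAA and, nearer the start, CACGTG or the letters in its place.
Ctsll3: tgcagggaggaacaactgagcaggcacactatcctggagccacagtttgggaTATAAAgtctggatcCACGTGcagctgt
BC051665: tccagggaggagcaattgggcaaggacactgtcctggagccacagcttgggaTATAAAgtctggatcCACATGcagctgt
Of the 80 bases, 71 were the same (88.8%) and 9 differed. Counted from 1 at the 5′ end of the stretch, the change nearest the start of the gene was G71A from Ctsll3 to BC051665, the only difference of the 9 inside CACGTG. Searched on both strands, TATAAA occurred in 13.6% of the 32851 RefSeq promoter windows of 300 bases. CACGTG, the core of the element that the lysosomal regulators TFEB and TFE3 bind, reads alike on both strands and occurred in 7.15% of those windows, and the longer TCACGTGA, which contains it, in 0.974%. Windows were matched for 7 of the 9 members, and the matches in them are descriptions of letters only. CACGTG occurred once in the windows of Ctsll3 and Ctsl, in 1 of the 2 windows of Lgmn and of Ctsa (there 2 times, both as TCACGTGA), and 2 times in that of Ctsd (1 of them as TCACGTGA), and it was not in those of Ctsz, Ctsc and BC051665.

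The other peptidases of the lysosome were mostly low in these embryos. Of 9 further genes listed, 6 stayed under 1 FPKM in every library and 2 passed the filter. Scpep1, the gene for serine carboxypeptidase 1, a relative of cathepsin A, measured 107, 79.1 and 54.0 FPKM in oEV-EMT 1 to 3 and 19.9, 21.9 and 32.3 FPKM in oEV-ctrl 1 to 3. The groups were well apart, with a log2 difference of 1.63 and a standard error of 0.29 (limma, unadjusted p = 0.00017, adjusted p = 0.0951), and the adjusted p was 0.0333 when libraries were weighted by their spread and ran up to 0.609 without the filter. Tpp1, the gene for tripeptidyl peptidase 1, measured 37.5, 25.6 and 18.4 FPKM in oEV-EMT and 15.2, 16.9 and 18.1 FPKM in oEV-ctrl. Its groups were apart by a narrow margin as deposited and overlapped under upper quartile scaling (log2 difference 0.61, standard error 0.27, limma adjusted p = 0.309).

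Inhibitors and delivery genes give the setting in which these enzymes act. Cystatins block cysteine cathepsins. Of 13 genes chosen for cystatins and for serpins, another family of peptidase inhibitors, 11 were listed and 6 passed the filter. None of the 6 had an unadjusted p of 0.05 or below in either direction (log2 differences from -0.15 to 0.32). Cstb, the gene for cystatin B, a cytosolic inhibitor of cathepsins L and B, was the most abundant, at 6184, 7091 and 8848 FPKM in oEV-EMT and 6542, 10979 and 7362 FPKM in oEV-ctrl. These values overlapped (log2 difference -0.15, limma adjusted p = 0.786) and were above those of Ctsl in every library.

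Of 13 genes for the delivery of enzymes to lysosomes, 11 passed the filter. M6pr, a receptor that carries mannose-phosphate-tagged enzymes, had the highest mean over all 6 libraries, although not within oEV-ctrl, where Gga2 was higher. M6pr measured 52.0, 57.4 and 34.6 FPKM in oEV-EMT and 21.2, 26.2 and 35.8 FPKM in oEV-ctrl. Its groups overlapped at oEV-EMT 3 and oEV-ctrl 3 (log2 difference 0.77, limma unadjusted p = 0.0156, adjusted p = 0.227). Gga3, a sorting adaptor of these receptors, was the only gene of the list with lower values in oEV-EMT and no overlap. It measured 1.41, 2.52 and 0.156 FPKM against 3.31, 2.54 and 2.60 FPKM (log2 difference -0.83, limma unadjusted p = 0.0460, adjusted p = 0.315). The margin between oEV-EMT 2 and oEV-ctrl 2 was very narrow, and oEV-EMT 3 lay under 1 FPKM. In the values as deposited, 2 of the 11 genes were apart with oEV-EMT higher, beside 18.1% of all genes. These were Gnptg, a subunit of the enzyme that makes the tag, and Gga1, another adaptor. Their log2 differences were 0.46 and 0.29 (limma adjusted p = 0.343 and 0.524). The groups of Gnptg overlapped under upper quartile scaling and those of Gga1 under median-of-ratios scaling. Among 6 genes for lysosomal partners and substrates, Lamp1, a membrane protein of the lysosome, was the most abundant at 494, 420 and 355 FPKM in oEV-EMT against 265, 275 and 325 FPKM in oEV-ctrl, without overlap (log2 difference 0.55, limma unadjusted p = 0.0190, adjusted p = 0.240). The median of these 6 genes was 0.35, close to the 0.36 of the 8 members, and that of the delivery genes was 0.29.

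The labelled tissue was checked against markers of the blastocyst. The 8 trophectoderm markers, which include the keratins Krt8 and Krt18 of the outer layer, all passed the filter. They summed to 3136 to 4746 FPKM in oEV-EMT and 3082 to 4836 FPKM in oEV-ctrl, with a median log2 difference of 0.010. Only Elf5 of the 8 had an unadjusted p of 0.05 or below, with higher values in oEV-EMT. Its log2 difference was 0.67 (limma, unadjusted p = 0.0288, adjusted p = 0.270), and its groups overlapped. All 7 epiblast markers passed, and their summed level was 105.8 to 146.7 FPKM in oEV-EMT against 59.2 to 102.9 FPKM in oEV-ctrl. Of these, 3 (Pou5f1 at 0.97, Nanog at 1.11 and Fgf4 at 0.99 on the log2 scale) had higher values in oEV-EMT with an unadjusted p of 0.05 or below in limma, the lowest adjusted p being 0.175. The other 4 did not reach that p, at 0.32 for Tdgf1, 0.071 for Klf2, -0.061 for Esrrb and -0.32 for Sox2, and the median of the 7 was 0.32. All 7 primitive endoderm markers passed and overlapped in their sum, at 135.8 to 265.3 FPKM against 182.0 to 240.1 FPKM. Gata4 and Sox17 were nevertheless higher in oEV-EMT at an unadjusted p of 0.05 or below. The groups of Sox7 were apart with oEV-EMT higher in the values as deposited (log2 difference 0.52, limma adjusted p = 0.354), and they overlapped under median-of-ratios scaling. Dab2, the most abundant, stood at -0.26, Gata6 at -0.19, Col4a1 at -0.067 and Pdgfra at 0.075 on the log2 scale. Of 10 markers of oviduct, cumulus and blood cells, 6 were listed at 0 in every library and 9 stayed under 1 FPKM, and the highest value was 2.22 FPKM for Hba-a1, a globin gene. The epiblast sum, to which Nanog and Tdgf1 gave most, was higher in oEV-EMT as were Lgmn and Ctsb, but its groups overlapped under upper quartile scaling (lowest oEV-EMT 102.8, highest oEV-ctrl 104.2 FPKM). Its part in the differences of Ctsll3, Lgmn and Ctsb was not tested.

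**Figure D4:**
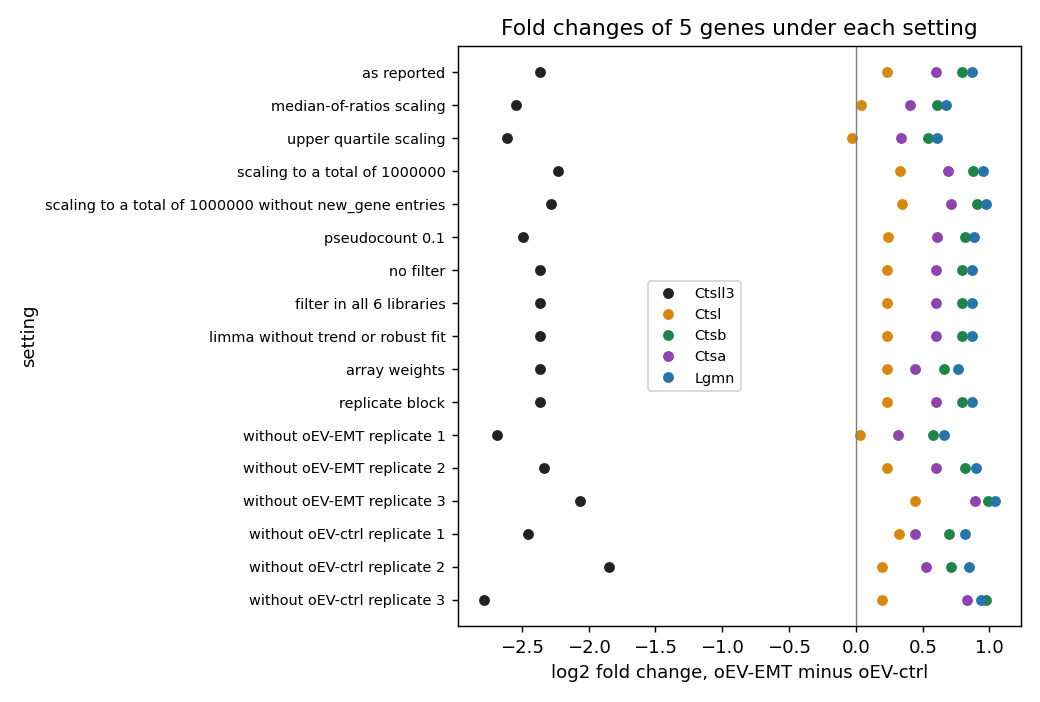
Log2 difference, oEV-EMT minus oEV-ctrl, of Ctsll3, Ctsl, Ctsb, Ctsa and Lgmn under the setting as reported and under each alternative of scaling, filter, fit and library left out (rows). The points of Ctsll3 stay between -2.79 and -1.85, those of Lgmn between 0.60 and 1.04, and those of Ctsl cross 0 under upper quartile scaling at -0.029.

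The alternatives of scaling, filter, pseudocount and library left out moved these values as the plot of settings shows. Lgmn and Ctsb kept an unadjusted p of 0.05 or below in 16 of 16 alternatives, and the lowest adjusted p of any of the 8 members over all of them was 0.0628, for Lgmn.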

How the data were processed

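RNA of mouse blastocysts grown with oEV-EMT or oEV-ctrl was sequenced, in 3 libraries of 10 blastocysts a group. Per the submitters' processing notes, StringTie and the mm10 build were used; versions are not given, and the aligner is not given in the sources used here. The deposited values were taken as FPKM, as the sums per library exceed 1000000, although the study's methods name TPM. FPKM hold no counts, so the depth is unknown and no counting interval is given. Of 55774 rows, 287 were new_gene entries, and 55141 identifiers matched GENCODE M21 (GRCm38). The new_gene entries held 37.1% to 45.7% of the summed FPKM of a library. A single entry, new_gene48, held 15.3% to 19.0% in oEV-EMT and 19.7% to 31.5% in oEV-ctrl, without overlap. For this reason 1 of the 4 other scalings left the new_gene entries out of the total. The count test written in the design for whole counts did not apply. Genes with at least 1 FPKM in at least 3 libraries were kept, and log2(FPKM + 1) was fitted with limma 3.58.1 (trended and robust variance) in R 4.3.3, with Benjamini-Hochberg adjustment over all genes, and tested on simulated data. A gene was called at an adjusted p of 0.05 with an absolute log2 difference of 1. The alternatives were 4 other scalings, a pseudocount of 0.1, other filters, fits and weights, a block for the replicate number and the omission of each library in turn. Shared stretches of 50 bases and codons were read from GENCODE transcripts, promoters from RefSeq, with Python 3.11.15, Biopython 1.88 and matplotlib 3.10.9. The members and lists were chosen with earlier results of these data known. Named were all members and, from each further list, the most abundant gene and up to 4 genes at an unadjusted p of 0.05 or without overlap.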

Additional observations from a re-analysis of the deposited data

How the results depend on the processing

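The count of genes called by limma over all genes, 0 as reported, was 4 with the filter in all 6 libraries, 104 with libraries weighted by their spread and 21 with the replicate block, and 0 to 17 when a library was left out, with the highest count without oEV-ctrl replicate 3. At an unadjusted p of 0.05 the count of 1831 was 2789 with weights and 1174 to 2182 when a library was left out. The share of Ctsll3 differed by -7.39 to -3.26 percentage points. Of the 144 member values under alternatives, which include those of Ctsll3, 142 kept their direction. Part of this count was fixed in advance. The other filters, the fit without trend or robust variance and the replicate block leave the log2 difference of a member unchanged. None of the 8 members beside Ctsll3 was called under any alternative. The log2 difference reversed for Ctsl under upper quartile scaling (-0.029) and for Ctsd without oEV-EMT replicate 1 (-0.058, with a range to 0.786 over the libraries left out), and the cause was not tested. Libraries share replicate numbers, but the deviations of same-numbered libraries correlated at 0.119, -0.0442 and 0.0388, and 2 of 6 libraries correlated best with their own number, so the pairing was taken as a number alone. The 21 genes counted with the block include Ctsll3, which was chosen on this contrast, so that count is no test of Ctsll3. The depth of the libraries is unknown, so its limits could not be given.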
